A study of Homo sapiens with 19 samples.

Results

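After 72 h of doxorubicin, 196 of the 23367 genes in the table met a rule of opposite change in the MYCN-high and MYCN-low states of SHEP TET21N cells, a human neuroblastoma line in which doxycycline represses a MYCN transgene. They were chosen by their untreated and 72 h levels. Counts were converted to CPM (counts scaled to a common library total of gene counts), and a gene qualified if its mean over the 8 untreated and 72 h libraries was 5 CPM or more, if the 72 h/untreated ratio of mean CPM (plus 0.5) was 1.5 or more in one state and 1/1.5 or less in the other, and if the 72 h and untreated libraries did not overlap in either state. In 149 of the genes the level was higher after the drug in MYCN-high cells and lower in MYCN-low cells, and in the other 47 it was the reverse. Of the 10388 genes with a mean of 5 CPM or more, the rule took 1.89% in all, 1.43% into the class of 149 and 0.452% into the class of 47. Since the 8 libraries chose the genes, the values of these libraries are a description and carry no test.

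MYCN-high cells were grown without doxycycline and MYCN-low cells with it. Each state was sampled after 72 h of doxorubicin at 0.1 µg/ml, then 3, 8 and 14 days after the drug was washed out, and without the drug. Every group held 2 libraries, replicates B and C, except MYCN-low cells at 14 days, which had replicate B only. All MYCN-low cultures held doxycycline, so its own effect and that of low MYCN cannot be told apart. Drug-free cells matched to 3, 8 or 14 days were not used here, and all cells came from a single line. Nothing in the labels says how the duplicates were grown apart, so p-values measure the spread between these libraries. In bulk RNA, fewer cells that express a gene and less RNA per cell cannot be told apart.

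MYCN, a MYC-family regulator of growth genes, is amplified in high-risk neuroblastoma, and the chemotherapy drug doxorubicin breaks DNA by poisoning topoisomerase II. DNA breaks, as well as cytokine receptors, can activate NF-kappaB: its dimers (RELA and NFKB1 in the canonical arm, RELB and NFKB2 in the non-canonical arm) leave their inhibitors, enter the nucleus and switch on survival genes, chemokines and their own inhibitors. Neuroblastoma cells can hold an adrenergic, neuron-like state or a mesenchymal state rich in matrix genes, and SHEP cells are known for the mesenchymal state.

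Promoter windows are shown for 5 genes, each the 250 bases before the RefSeq transcription start (GRCh38.p14). Those of VGF, TNFRSF9, BIRC3 and NFKB2 hold matches to the letters below, and that of MXRA5, a matrix gene of the opposite class, holds none. The genes were picked for display and do not stand for their classes, whose shares follow the sequences. Capitals mark matches on either strand to the NF-kappaB consensus, to TGACGTCA (the cAMP response element) or to CACGTG (the E-box that MYC proteins can bind). The windows are VGF at chr7:101165570-101165819 on the minus strand, TNFRSF9 at chr1:7940840-7941089 on the minus strand, BIRC3 at chr11:102317234-102317483 on the plus strand, NFKB2 at chr10:102394328-102394577 on the plus strand (1 of 3 starts listed) and MXRA5 at chrX:3346653-3346902 on the minus strand. For NFKB2 the listed start with the most matches is shown.
VGF: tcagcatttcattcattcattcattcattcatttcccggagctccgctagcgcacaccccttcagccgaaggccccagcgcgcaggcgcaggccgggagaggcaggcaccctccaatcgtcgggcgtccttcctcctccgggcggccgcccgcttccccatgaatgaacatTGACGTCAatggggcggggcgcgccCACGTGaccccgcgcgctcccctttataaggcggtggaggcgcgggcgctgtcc
TNFRSF9: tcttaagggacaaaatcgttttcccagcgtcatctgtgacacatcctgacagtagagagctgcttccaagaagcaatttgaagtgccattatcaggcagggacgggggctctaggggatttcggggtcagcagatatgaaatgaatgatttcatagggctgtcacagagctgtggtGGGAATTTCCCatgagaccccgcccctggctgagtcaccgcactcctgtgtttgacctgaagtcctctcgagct
BIRC3: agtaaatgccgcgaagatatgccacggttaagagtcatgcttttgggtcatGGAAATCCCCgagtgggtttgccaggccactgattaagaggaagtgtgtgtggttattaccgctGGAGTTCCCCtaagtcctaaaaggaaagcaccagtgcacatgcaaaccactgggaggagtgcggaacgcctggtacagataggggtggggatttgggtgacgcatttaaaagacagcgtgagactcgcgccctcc
NFKB2: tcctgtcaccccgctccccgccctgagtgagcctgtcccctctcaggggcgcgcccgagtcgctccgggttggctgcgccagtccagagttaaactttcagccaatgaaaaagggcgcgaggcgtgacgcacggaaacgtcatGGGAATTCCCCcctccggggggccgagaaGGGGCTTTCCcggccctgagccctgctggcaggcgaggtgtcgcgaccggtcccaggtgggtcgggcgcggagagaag
MXRA5: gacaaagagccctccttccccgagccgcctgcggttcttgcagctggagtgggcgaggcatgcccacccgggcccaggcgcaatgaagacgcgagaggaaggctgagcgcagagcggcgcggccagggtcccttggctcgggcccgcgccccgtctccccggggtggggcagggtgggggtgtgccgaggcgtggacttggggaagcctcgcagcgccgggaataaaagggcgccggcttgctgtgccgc

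RefSeq windows were matched for 126 of the 149 genes and 37 of the 47. Each gene was counted once, and a match at any of its listed starts sufficed. An NF-kappaB consensus match lay in 32 windows (25.4%) of the class of 149 and in 5 (13.5%) of the class of 47, against 11.8% of all 27305 genes in the promoter table. Among the NF-kappaB list members described below, 4 of 5 matched genes (80.0%) had one. The rule was also applied again in 4 ways, described below. Of the genes that met it in all 4, a match was found for 3 of 16 matched genes (18.8%) of the class of 149. For the class of 47 it was 3 of 19 (15.8%). The shares of the 2 classes thus lay closer together in these genes, which are few, and the difference was not tested. TGACGTCA was found for 5.6% and 2.7% of the matched genes of the 2 classes, against 2.0% of all, and CACGTG for 8.7% and 8.1%, against 7.7% of all. GGGCGG, the GC box, was in 78.6% and 75.7%, against 46.2% of all, and the median GC content of the windows was 67.1% and 66.4%, against 58.0%. These are matches of letters, not shown to be bound sites.

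The libraries held 16530112 to 27638012 gene counts. MYCN itself was at 576 to 780.2 CPM in 9 of the 10 libraries where it was switched on, at 1434 CPM in 72 h replicate C, and at 14.2 to 32.7 CPM in the MYCN-low libraries. The mesenchymal markers VIM, FN1, PRRX1, TWIST1 and YAP1 were present, whereas the adrenergic markers TH and DBH did not pass 0.091 CPM and PHOX2A was at 0. HAND2, of the same adrenergic list, was present in every library at 48.4 to 323 CPM, and GATA3 and ISL1 reached 2.93 and 6.14 CPM. Markers of other cell types were low: the leukocyte gene PTPRC reached at most 2.15 CPM, and the Schwann cell factor SOX10 was at 0.

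Among the 19 libraries, 2 of the 8 that chose the genes stood apart in their dependence on GC content. With 11972 genes split by GC content into 10 equal bins, the median log2 deviation from the mean of the libraries in the GC-richest bin minus that in the GC-poorest bin was 1.24 in MYCN-low untreated replicate B and 0.66 in MYCN-high 72 h replicate C, against -0.36 to 0.10 in the other 17. The longest transcripts of the class of 149 had a median GC content of 59.8% (147 genes with a value) and those of the class of 47 a median of 43.1%, against 47.2% of all genes with a mean of 5 CPM or more. GC content above that overall median was found in 133 of the 149 (89.3%) and in 13 of the 47 (27.7%). The rule was therefore applied again 4 times, in ways chosen after the data were seen: after a correction for GC content and length, without each of the 2 libraries, and without both. It was met in all 4 by 22 of the 149 genes and by 27 of the 47. Those 22 had a median GC content of 46.6%, and those 27 one of 44.9%. Without MYCN-low untreated replicate B the rule took 121 genes (50 higher and 71 lower in MYCN-high cells), of which 81 were among the 196; without MYCN-high 72 h replicate C it took 125 (80 and 45), of which 111 were; without both, 120 (41 and 79), of which 60 were; with the GC correction, 104 (57 and 47), of which 83 were. Without MYCN-low untreated replicate C the rule took 594 genes, and without MYCN-high 72 h replicate B it took 300. What GC content contributed to the choices was not tested.

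**Figure D1:**
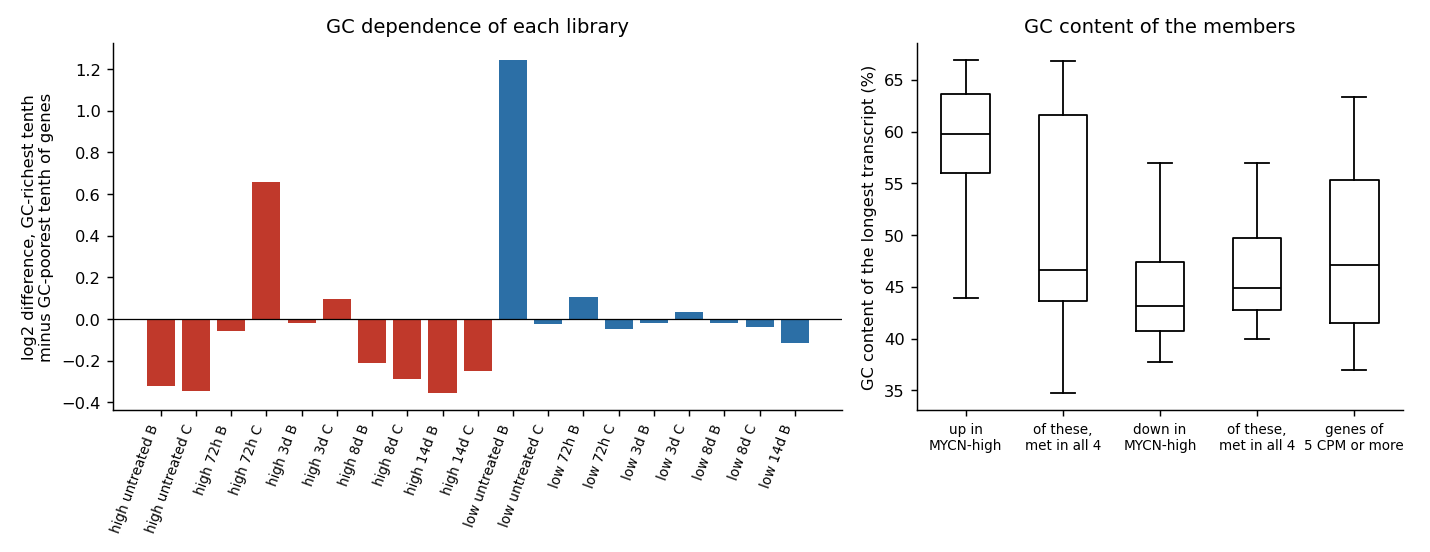
Left, for each of the 19 libraries, the median log2 deviation of the GC-richest of 10 bins of genes minus that of the GC-poorest (red MYCN-high, blue MYCN-low); MYCN-low untreated B at 1.24 and MYCN-high 72 h C at 0.66 stand above the rest. Right, GC content of the longest transcript (box, quartiles and median; whiskers, the 5th to 95th percentile): the class higher in MYCN-high cells has a median of 59.8%, and the 22 of its genes that met the rule in all 4 re-applications have one of 46.6%.

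Scaling also moved the split. With TMM-scaled CPM the rule took 102 genes into the first class and 67 into the second, and with DESeq2's size factors 91 and 69, against 149 and 47; all 47 of the second class were kept under both, and 96 and 91 of the first. Of the 149 genes, the median ratio was 1.85 in MYCN-high cells (1.51 to 58.5) and 0.547 in MYCN-low cells (0.0645 to 0.666). In the 47 it was 0.463 in MYCN-high cells (0.118 to 0.666) and 1.81 in MYCN-low cells (1.53 to 3.58). Just inside the threshold stood PDGFD, a growth factor, at 2.98 in MYCN-high and 0.666 in MYCN-low cells, and RAET1E, a stress ligand of natural killer cells, at 1.69 and 0.666. PC, the mitochondrial pyruvate carboxylase, fell just outside at 1.52 and 0.667, as did IL17RC, a cytokine receptor subunit, at 1.499 and 0.639. In the second class CRISPLD1 (0.666 and 1.60) and FRAT2 (0.655 and 1.92) were just inside, and RCBTB2 (0.669 and 1.56) and GDF6 (0.669 and 2.82), a bone morphogenetic protein ligand, just outside. A further 97 and 14 genes met the ratios of the 2 classes but had overlapping libraries.

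**Figure D2:**
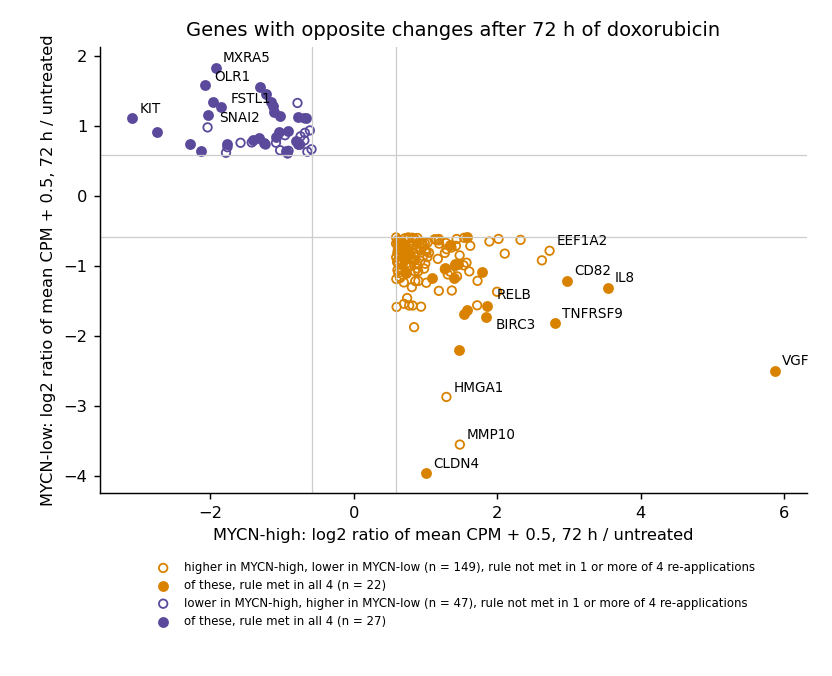
Log2 ratio of mean CPM plus 0.5, 72 h over untreated, in MYCN-high cells (x) and MYCN-low cells (y), for the 149 genes higher in MYCN-high cells (orange) and the 47 lower there (purple); grey lines mark the 1.5-fold threshold. Filled points met the rule in all 4 re-applications (22 and 27); VGF lies farthest to the right at a 58.5-fold ratio and KIT farthest to the left at 0.118.

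Of the gene lists used, the NF-kappaB list held the most members. Of its 20 NF-kappaB subunits, feedback inhibitors and targets, 7 were members, against 1.89% of the 10388 genes with a mean of 5 CPM or more. They were BIRC3, RELB, NFKB2, NFKBIA, NFKBIE, TNFAIP2 and CD83, and none of the 20 was in the second class. BIRC3, RELB and NFKB2 met the rule in all 4 re-applications, whereas NFKBIA, NFKBIE, TNFAIP2 and CD83 did not. The lists were chosen with earlier results of these data known, so the share of members is a description. Lists of p53 targets, mitotic genes, replication genes, interferon genes and AP-1 factors held 0 members. So did those of MYC targets, contractile genes, the integrated stress response, adrenergic markers and other cell types. At a share of 1.89%, lists of this size would hold few or no members, so 0 is not a result about them. At 72 h, by the same ratio and overlap rule, 13 of the 15 list genes with a mean of 5 CPM or more showed higher levels in MYCN-high cells, with none lower, against 24.9% higher and 18.8% lower of all 10388 genes. In MYCN-low cells 3 were higher and 7 lower, against 12.0% and 17.8% of all. The rule used these libraries, and the counts are a description. The 3 higher in both states were VCAM1, an adhesion molecule for leukocytes, at 23.0-fold in MYCN-high and 1.78-fold in MYCN-low cells, the pentraxin PTX3 at 3.47-fold and 2.44-fold, and the nuclear regulator NFKBIZ at 1.75-fold and 1.69-fold. IER3, an early response gene, had ratios of 9.44 and 0.445 and the co-regulator BCL3 3.87 and 0.465, but both averaged under 5 CPM. The list's summed level was 937 and 921 CPM at 72 h against 412 and 363 CPM untreated in MYCN-high cells, and 640 and 689 CPM at 72 h against 606 and 575 CPM untreated in MYCN-low cells.

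Of the subunits, RELB was at 12.1 and 16.4 CPM at 72 h, against 4.15 and 2.94 CPM untreated, in MYCN-high cells. In MYCN-low cells RELB was at 5.06 and 4.41 CPM at 72 h, against 21.0 and 9.01 CPM untreated. The ratios were 3.64 and 0.338, and at 72 h the states stood in the reverse of their untreated order with no overlap. NFKB2, which encodes the p100 precursor, was at 23.8 and 28.2 CPM at 72 h, against 11.2 and 6.06 CPM untreated, in MYCN-high cells. In MYCN-low cells NFKB2 was at 10.1 and 9.43 CPM at 72 h, against 40.7 and 23.8 CPM untreated. The NFKB2 ratios were 2.90 and 0.313. Without the 2 GC-dependent libraries the ratios were 3.11 and 0.551 for RELB and 2.66 and 0.422 for NFKB2.

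The inhibitors had ratios closer to 1. NFKBIA, which holds canonical dimers in the cytoplasm, was at 54.7 and 55.7 CPM at 72 h, against 29.02 and 27.1 CPM untreated, in MYCN-high cells. In MYCN-low cells NFKBIA was at 33.1 and 25.7 CPM at 72 h, against 46.5 and 49.1 CPM untreated. It met the rule without either or both of the libraries, but not after the GC correction, where its MYCN-low ratio was 0.682. NFKBIE, another inhibitor of the family, was at 27.4 and 18.1 CPM at 72 h, against 11.8 and 10.5 CPM untreated, in MYCN-high cells. In MYCN-low cells NFKBIE was at 14.0 and 9.67 CPM at 72 h, against 23.3 and 15.0 CPM untreated. Without the 2 libraries its ratios were 2.39 and 0.795, and without MYCN-low untreated replicate B the gene did not meet the rule.

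Among receptors and targets, TNFRSF9 (4-1BB), a costimulatory receptor of the tumour necrosis factor family, was at 34.9 and 35.2 CPM at 72 h, against 6.01 and 3.16 CPM untreated, in MYCN-high cells. In MYCN-low cells TNFRSF9 was at 3.92 and 4.69 CPM at 72 h, against 15.8 and 16.8 CPM untreated. Both pairs were far apart, and the ratios of 6.98 and 0.286 became 6.95 and 0.277 without the 2 libraries. BIRC3 (cIAP2), a ubiquitin ligase that blocks cell death and restrains the non-canonical arm, was at 27.4 and 19.5 CPM at 72 h, against 9.16 and 3.12 CPM untreated, in MYCN-high cells. In MYCN-low cells BIRC3 was at 3.10 and 3.60 CPM at 72 h, against 9.55 and 14.8 CPM untreated. Its ratios were 3.61 and 0.304, and 4.20 and 0.252 without the 2 libraries. IL8 (CXCL8), the neutrophil chemokine, was at 14.3 and 18.8 CPM at 72 h, against 1.23 and 0.703 CPM untreated, in MYCN-high cells. In MYCN-low cells IL8 was at 3.39 and 5.26 CPM at 72 h, against 9.32 and 13.6 CPM untreated. The IL8 ratios were 11.6 and 0.404, and 10.1 and 0.343 without the 2 libraries. IL8 was the single member of a list of 24 chemokines and cytokines.

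TNFAIP2, a target that shapes membrane protrusions, was at 14.3 and 28.8 CPM at 72 h, against 6.42 and 14.2 CPM untreated, in MYCN-high cells, where the lower 72 h library and the higher untreated library nearly met. In MYCN-low cells TNFAIP2 was at 4.30 and 4.88 CPM at 72 h, against 7.44 and 7.65 CPM untreated. CD83, a surface protein of activated immune cells, was at 19.1 and 21.9 CPM at 72 h, against 14.3 and 11.7 CPM untreated, in MYCN-high cells, and at 8.36 and 6.92 CPM against 13.8 and 11.5 CPM in MYCN-low cells. Without the 2 libraries the MYCN-high ratio was 1.37 for TNFAIP2 and 1.45 for CD83, under the threshold. CD82, a tetraspanin known as a metastasis suppressor and not on the list, was at 14.3 and 14.1 CPM at 72 h, against 2.05 and 0.703 CPM untreated, in MYCN-high cells. In MYCN-low cells CD82 was at 10.6 and 10.4 CPM at 72 h, against 32.5 and 17.1 CPM untreated.

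VGF, the precursor of secreted neuropeptides, led the class. It was at 24.0 and 192 CPM at 72 h, against 1.91 and 0.790 CPM untreated, in MYCN-high cells. In MYCN-low cells VGF was at 1.10 and 0.521 CPM at 72 h, against 8.38 and 5.33 CPM untreated. The 58.5-fold ratio in MYCN-high cells rested on replicate C for most of its size and was 13.3-fold without the 2 libraries, while the MYCN-low ratio of 0.178 was then 0.225. EEF1A2, a neuronal and muscle translation elongation factor, was at 34.7 and 19.9 CPM at 72 h, against 4.92 and 2.46 CPM untreated, in MYCN-high cells. In MYCN-low cells EEF1A2 was at 0.477 and 0.663 CPM at 72 h, against 1.93 and 0.734 CPM untreated, close to the pseudocount of 0.5. Its reads could be shared with the near-copy EEF1A1, so its level is uncertain, and without MYCN-low untreated replicate B it did not meet the rule.

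CLDN4, a tight junction claudin, was at 10.0 and 9.21 CPM at 72 h, against 6.52 and 2.50 CPM untreated, in MYCN-high cells. In MYCN-low cells CLDN4 was at 0.0955 and 0.237 CPM at 72 h, against 8.14 and 11.5 CPM untreated, with a ratio of 0.0645, the lowest of the class. The metalloproteinase MMP10 had ratios of 2.79 in MYCN-high and 0.0856 in MYCN-low cells, and HMGA1, a chromatin architectural protein, was at 18.0 and 20.9 CPM at 72 h against 177 and 113 CPM untreated in MYCN-low cells. In MYCN-high cells HMGA1 was at 180.0 and 575 CPM at 72 h, against 167 and 140.5 CPM untreated, and without replicate C its ratio was 1.17. Of the other leading genes, SPOCD1, a factor of germline DNA methylation in mice, and TMEM158, a membrane protein induced by RAS, met the rule in all 4 re-applications. The mRNA-decay factor ZFP36, MMP10 and the small glutaredoxin-like protein SH3BGRL3 did not meet it without MYCN-low untreated replicate B.

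Apart from COL6A1 and CD44, described below, the rest of the 22 genes that met the rule in all 4 re-applications were named after their values were seen. They included KCNMA1, the BK potassium channel, at 75.4 and 78.4 CPM at 72 h, against 33.4 and 24.3 CPM untreated, in MYCN-high cells, and at 79.1 and 117 CPM, against 177 and 264 CPM, in MYCN-low cells. KCNMA1 levels of the 2 states were far apart untreated and close at 72 h. CTSS, the lysosomal protease cathepsin S, was at 15.4 and 10.0 CPM at 72 h, against 3.74 and 4.96 CPM untreated, in MYCN-high cells, and at 2.20 and 4.26 CPM, against 4.34 and 9.28 CPM, in MYCN-low cells. CD97, an adhesion receptor, was at 44.5 and 58.6 CPM at 72 h, against 26.7 and 21.1 CPM untreated, in MYCN-high cells, and at 12.0 and 10.0 CPM, against 33.0 and 17.6 CPM, in MYCN-low cells. AGPAT9, an acyltransferase of lipid synthesis, BHLHE41, the lipid hydrolase ABHD2, the small GTP-binding protein GEM, the axon guidance ligand SLIT2, FRMD5 and PDGFD complete them.

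Matrix and adhesion genes stood in both classes. Of a list of 24 collagens and matrix genes, COL6A1, COL6A2 and TGFBI were in the first class and COL5A1 in the second. COL6A1, which encodes a chain of collagen VI, was at 70.1 and 101 CPM at 72 h, against 25.2 and 23.7 CPM untreated, in MYCN-high cells. In MYCN-low cells COL6A1 was at 132 and 137 CPM at 72 h, against 359 and 211 CPM untreated, so it remained higher there than in MYCN-high cells. Its neighbour COL6A2 had a MYCN-high ratio of 1.47 without the 2 libraries and did not meet the rule in any re-application. TGFBI, a secreted matrix adaptor, was at 1270.1 and 2155 CPM at 72 h, against 867 and 849 CPM untreated, in MYCN-high cells. In MYCN-low cells TGFBI was at 2965 and 2865 CPM at 72 h, against 5491 and 4497 CPM untreated. Its MYCN-high ratio was 1.48 without the 2 libraries, under the threshold. CD44, the hyaluronan receptor and a mesenchymal marker, was at 589 and 707 CPM at 72 h, against 289 and 220.5 CPM untreated, in MYCN-high cells. In MYCN-low cells CD44 was at 445 and 556 CPM at 72 h, against 739.9 and 874 CPM untreated, and it met the rule in all 4 re-applications.

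Single members came from other lists. ADM, the vasodilator peptide adrenomedullin, was at 50.2 and 57.5 CPM at 72 h, against 14.7 and 11.2 CPM untreated, in MYCN-high cells, and at 13.9 and 20.7 CPM, against 26.0 and 27.3 CPM, in MYCN-low cells. It met the rule without either library or both, but not after the GC correction. FASN (fatty acid synthase), RPL35 (a ribosomal protein) and TERC (the telomerase RNA) did not meet the rule without both libraries, with MYCN-high ratios of 1.46, 1.34 and 1.43. Their MYCN-low ratios were then 0.882, 0.695 and 0.487, those of FASN and RPL35 also outside the threshold. TERC was listed here among structured RNAs that report on RNA quality; RMRP and RPPH1 of that list were at 3706 and 2472 CPM in MYCN-low untreated replicate B, against 1631 and 765 CPM in replicate C, and their part in the result was not tested.

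In the second class MXRA5, a matrix remodelling protein, was at 0.212 and 0 CPM at 72 h, against 0.775 and 2.81 CPM untreated, in MYCN-high cells. In MYCN-low cells MXRA5 was at 18.5 and 47.7 CPM at 72 h, against 9.08 and 8.70 CPM untreated, the highest MYCN-low ratio of the class at 3.58. FSTL1, a secreted follistatin-like glycoprotein, was at 221 and 209.7 CPM at 72 h, against 882 and 668 CPM untreated, in MYCN-high cells. In MYCN-low cells FSTL1 was at 4397 and 4027 CPM at 72 h, against 2058 and 1412 CPM untreated, and the states did not overlap at either time. COL5A1, a chain of fibril-forming collagen V, was at 35.2 and 33.2 CPM at 72 h, against 77.2 and 55.4 CPM untreated, in MYCN-high cells. In MYCN-low cells COL5A1 was at 947 and 951 CPM at 72 h, against 862 and 344 CPM untreated, with a ratio of 1.57, and 2.76 without the 2 libraries. ADAMTS5, an aggrecan-cleaving protease, was at 1.44 and 0.727 CPM at 72 h, against 4.78 and 1.58 CPM untreated, in MYCN-high cells, and at 20.4 and 31.6 CPM, against 13.8 and 4.41 CPM, in MYCN-low cells.

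KIT, the stem cell factor receptor, had the lowest MYCN-high ratio, 0.118. It was at 27.1 and 15.3 CPM at 72 h, against 177 and 191 CPM untreated, in MYCN-high cells. In MYCN-low cells KIT was at 370.5 and 353 CPM at 72 h, against 139 and 194 CPM untreated. Untreated, the 2 states overlapped in KIT, whereas at 72 h they did not. CXCR7 (ACKR3), a scavenging receptor for CXCL12, was at 2.38 and 1.07 CPM at 72 h, against 5.10 and 11.2 CPM untreated, in MYCN-high cells. In MYCN-low cells CXCR7 was at 47.7 and 51.7 CPM at 72 h, against 20.3 and 18.1 CPM untreated. OLR1, a receptor for oxidised lipoprotein that overlaps another gene in the annotation, was at 0.297 and 0.727 CPM at 72 h, against 2.46 and 5.01 CPM untreated, in MYCN-high cells, and at 12.8 and 44.7 CPM, against 6.68 and 11.6 CPM, in MYCN-low cells.

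SNAI2 (SLUG), a repressor of epithelial genes and a mesenchymal marker, was at 1.48 and 1.70 CPM at 72 h, against 2.96 and 13.1 CPM untreated, in MYCN-high cells. In MYCN-low cells SNAI2 was at 88.1 and 58.2 CPM at 72 h, against 32.1 and 32.6 CPM untreated. The untreated MYCN-high libraries were far apart, whereas the untreated MYCN-low libraries nearly coincided. CBLN2, a synapse organiser, and KIF5C, a kinesin of axons, were also in this class. CBLN2 was at 19.9 and 13.3 CPM at 72 h, against 51.3 and 32.0 CPM untreated, in MYCN-high cells, and at 311 and 221 CPM, against 98.4 and 81.1 CPM, in MYCN-low cells. KIF5C was at 1.65 and 2.42 CPM at 72 h, against 4.56 and 5.49 CPM untreated, in MYCN-high cells, and at 15.5 and 11.1 CPM, against 5.10 and 5.22 CPM, in MYCN-low cells. ZNF711, a zinc finger protein linked to intellectual disability, differed in its untreated order: it was higher in MYCN-high cells, at 14.9 and 20.5 CPM, than in MYCN-low cells, at 2.402 and 3.83 CPM. All 10 leading genes of this class met the rule in all 4 re-applications.

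The other 17 of the 27 genes of this class that met the rule in all 4 re-applications, also named after their values were seen, included matrix genes. SDC2, a heparan sulphate proteoglycan of the cell surface, was at 65.6 and 56.7 CPM at 72 h, against 151 and 114 CPM untreated, in MYCN-high cells, and at 892 and 649.7 CPM, against 448 and 217 CPM, in MYCN-low cells. EFEMP1, a fibulin of the matrix, was at 62.7 and 43.6 CPM at 72 h, against 121 and 79.97 CPM untreated, in MYCN-high cells, and at 599.5 and 849.6 CPM, against 497 and 263 CPM, in MYCN-low cells. DCN, the proteoglycan decorin, was at 6.53 and 2.18 CPM at 72 h, against 13.8 and 9.44 CPM untreated, in MYCN-high cells, and at 204 and 253 CPM, against 149 and 107 CPM, in MYCN-low cells. These 3 genes were lower in MYCN-high than in MYCN-low cells in every library of both times. BAMBI, a decoy receptor of TGF-beta signalling, was at 7.89 and 5.09 CPM at 72 h, against 18.7 and 13.6 CPM untreated, in MYCN-high cells, and at 61.8 and 50.7 CPM, against 38.0 and 27.6 CPM, in MYCN-low cells. FZD4, a receptor for Wnt ligands and norrin, PRKD1, a diacylglycerol-activated kinase, GFRA1, LPPR4, NDNF, KCTD12, IVNS1ABP, TNNT1, COL5A1, CABLES1, PRR5L, PDE3A and TUBB2B were the others.

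**Figure D3:**
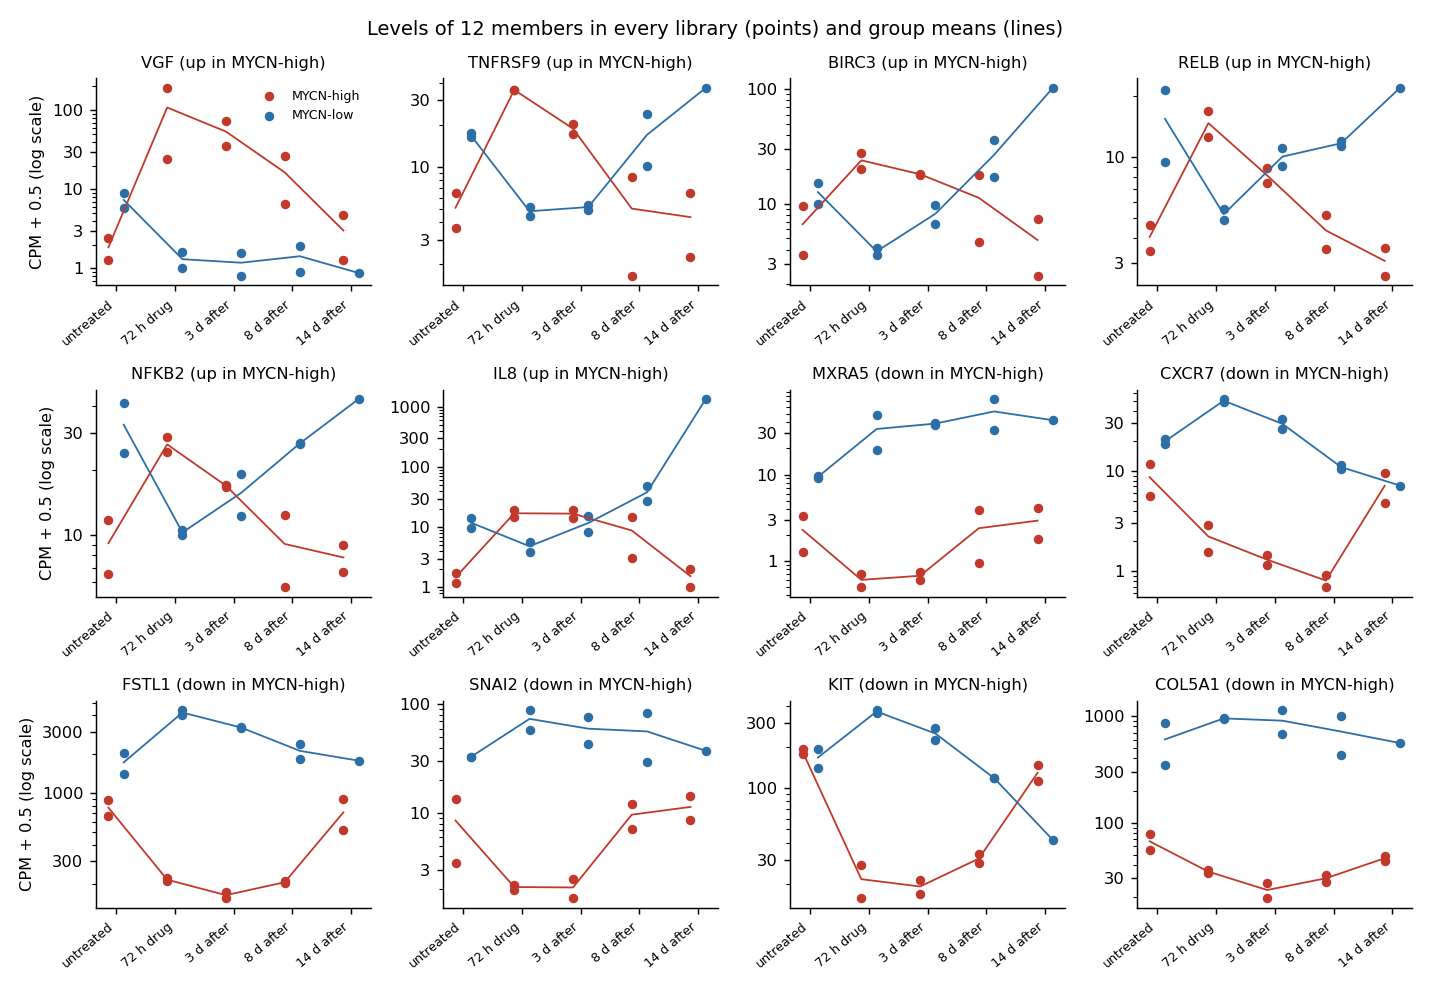
CPM plus 0.5 (log scale) of 12 genes in every library (points) with group means (lines), MYCN-high in red and MYCN-low in blue, across untreated cells, 72 h of drug and 3, 8 and 14 days after washout; MYCN-low at 14 days is 1 library. In the first 6 panels the lines cross: at 14 days IL8 is at 0.511 and 1.56 CPM in MYCN-high cells and at 1351 CPM in the MYCN-low library. In the last 6 panels the MYCN-high mean at 72 h lies below the untreated one.

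In untreated cells 114 of the 149 genes were lower in MYCN-high than in MYCN-low cells with no overlap of libraries, against 39.0% of the 10388 genes; at 72 h 102 of the 149 were higher, against 38.6%. Of the 47, 22 were lower and 8 higher in untreated MYCN-high cells, against 39.0% and 30.9% of all, and at 72 h 44 were lower, against 31.4% of all. These are the libraries that chose the genes, and the counts are descriptive.

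Set against the untreated libraries, the first class stayed near its 72 h level for 3 days and then returned in MYCN-high cells, and stayed below the untreated mean in MYCN-low cells. Its median log2 level relative to the state's untreated mean was 0.61 and 1.15 at 72 h in MYCN-high cells, 0.69 and 0.80 at 3 days, 0.43 and 0.25 at 8 days, and 0.01 and 0.15 at 14 days. In MYCN-low cells it was -0.83 and -0.81 at 72 h, -0.68 and -0.59 at 3 days, -0.65 and -0.46 at 8 days and -0.51 at 14 days. The untreated MYCN-low replicates themselves lay at 0.42 (B, the GC-dependent library) and -0.42 (C). After washout the MYCN-low values lay nearer to replicate C than to the untreated mean, so their distance from that mean rests in part on replicate B. The second class was at -0.91 and -1.31 at 72 h in MYCN-high cells, -0.98 and -1.23 at 3 days, -0.75 and -0.57 at 8 days, and 0.01 and -0.11 at 14 days. In MYCN-low cells it was at 0.92 and 0.85 at 72 h, 0.66 and 0.73 at 3 days, 0.51 and 0.29 at 8 days and 0.35 at 14 days. All these values share the untreated libraries with the rule, and no test was made of them.

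**Figure D4:**
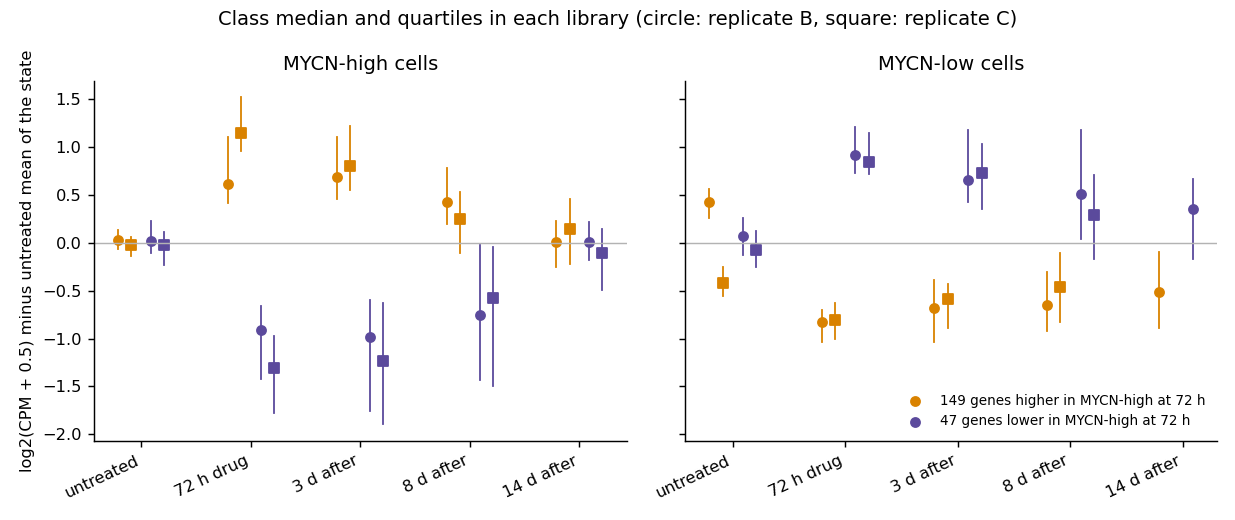
Median (points) and quartiles (lines) of the log2 level of each class, relative to the mean of the untreated libraries of the same state, in every library; left MYCN-high, right MYCN-low, orange the 149 genes and purple the 47 genes. At 14 days the MYCN-high medians lie between -0.11 and 0.15, and the single MYCN-low library is at -0.51 and 0.35.

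Counted by overlap, 144 of the 149 genes were higher at 3 days than untreated in MYCN-high cells (43.4% of the 10388 genes were), 89 at 8 days (39.0%) and 43 at 14 days (27.2%). Of the 47, 40 were lower at 3 days (35.1% of all), 29 at 8 days (27.0%) and 11 at 14 days (23.6%). In MYCN-low cells 83 of the 149 were lower at 3 days (31.8%), 65 at 8 days (31.4%) and 87 at 14 days, where 1 library makes the count easier to reach (38.7%). Of the 47, 35 were higher at 3 days (26.4%), 21 at 8 days (27.7%) and 27 at 14 days (34.9%). The untreated libraries in these counts also chose the genes, so the counts are a description and no test was made. The MYCN-low counts include the GC-dependent untreated replicate B.

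The libraries after washout took no part in the choice, so the states were tested there with edgeR's quasi-likelihood test and Benjamini-Hochberg adjustment over all 14793 tested genes. All 196 passed the filter on low counts. The tested genes include genes with a mean under 5 CPM, which the rule left out, so the background shares are not matched to the members in level. The spread was estimated from all 19 libraries, including the untreated and 72 h libraries that chose the genes. The rule can favour genes with a small spread in those libraries, and the effect on their p-values was not tested. At 3 days 42 of the 149 genes were higher and 9 lower in MYCN-high than in MYCN-low cells, where 17.0% and 14.8% of all tested genes were. Its median log2 fold change was 0.30, against 0.04 for all tested genes. Of the 47 genes 1 was higher and 41 lower, with a median of -2.65. At 8 days 26 of the 149 were higher and 39 lower (background 23.4% and 20.5%; median -0.20, all genes 0.02), and of the 47, 3 were higher and 32 lower (median -1.44). At 14 days, with 1 MYCN-low library, 13 of the 149 were higher and 46 lower (background 21.4% and 20.5%; median -0.43, all genes 0.00), and of the 47, 5 were higher and 19 lower (median -0.50).

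**Figure D5:**
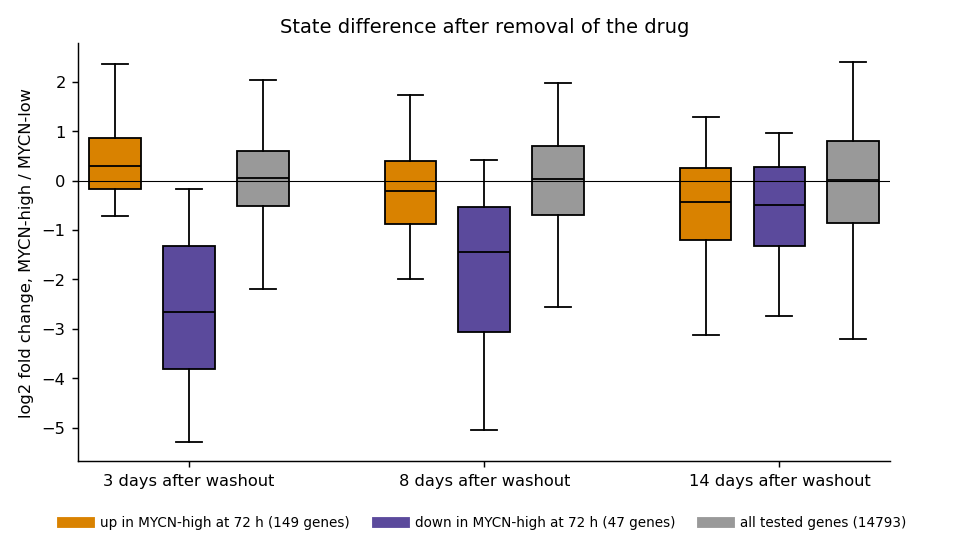
Log2 fold change of MYCN-high over MYCN-low cells 3, 8 and 14 days after washout for the 149 genes (orange), the 47 genes (purple) and all 14793 tested genes (grey); boxes are quartiles with the median, whiskers the 5th to 95th percentile. The median of the first class is 0.30, -0.20 and -0.43, that of the second -2.65, -1.44 and -0.50.

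Of the 7 NF-kappaB members, RELB, NFKB2, NFKBIA, NFKBIE and BIRC3 were lower in MYCN-high cells than in the single MYCN-low library at 14 days. At that time 14 of the 20 list genes were lower and 0 higher in MYCN-high cells (median log2 fold change -2.56, background 20.5% lower and 21.4% higher), against 9 lower and 2 higher at 8 days (-0.82) and 1 lower and 3 higher at 3 days (0.24). The list's summed level at 14 days was 371 and 416 CPM in MYCN-high cells, against 3791 CPM in the MYCN-low library. RELB was at 3.07 and 2.10 CPM in MYCN-high cells and at 21.5 CPM in the MYCN-low library at 14 days, a log2 fold change of -2.94 ± 0.40 (SE, adjusted p = 5.44e-05), and was already lower at 8 days (-1.51, adjusted p = 0.00228). NFKB2 was at 8.47 and 6.19 CPM against 42.7 CPM (-2.43 ± 0.42, adjusted p = 0.000299), and NFKBIA at 23.4 and 30.5 CPM against 90.1 CPM (-1.62 ± 0.24, adjusted p = 8.44e-05). NFKBIE was also lower at 14 days (-1.08, adjusted p = 0.0129).

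The receptors and targets showed the same order at 14 days. BIRC3 was at 6.82 and 1.85 CPM in MYCN-high cells and at 102 CPM in the MYCN-low library (log2 fold change -4.45 ± 0.75, SE, adjusted p = 0.000262). TNFRSF9 was at 5.97 and 1.76 CPM against 36.3 CPM (-3.13 ± 0.71, adjusted p = 0.00253). At 3 days TNFRSF9 was still higher in MYCN-high cells, at 16.8 and 19.7 CPM against 4.86 and 4.44 CPM (1.91 ± 0.62, adjusted p = 0.0276), but that call was lost without any 1 of the 4 libraries (adjusted p up to 0.132). At 8 days it was lower in MYCN-high cells (-1.84, adjusted p = 0.0242), a call lost without MYCN-high replicate C (0.181) or MYCN-low replicate C (0.235). IL8 was at 0.511 and 1.56 CPM in MYCN-high cells and at 1351 CPM in the MYCN-low library at 14 days (-10.19 ± 0.81, adjusted p = 1.26e-06), and was lower at 8 days as well (-2.15, adjusted p = 0.00505). CD82 was at 0.966 and 0.926 CPM against 43.7 CPM (-5.40 ± 0.53, adjusted p = 4.57e-06). With 1 library, the MYCN-low group at 14 days was assumed to vary like the other groups.

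TNFAIP2 and CD83 were higher in MYCN-high cells at 3 and 8 days, and neither passed the test at 14 days (log2 fold change 0.96, adjusted p = 0.194, and 0.38, adjusted p = 0.226). TNFAIP2 was at 20.1 and 24.1 CPM against 3.12 and 5.15 CPM at 3 days (log2 fold change 2.36 ± 0.47, SE, adjusted p = 0.00127), and at 27.6 and 20.4 CPM against 3.57 and 10.1 CPM at 8 days (1.83, adjusted p = 0.00396), a call lost without MYCN-low replicate B (0.0597). CD83 was at 19.4 and 20.4 CPM against 8.93 and 8.83 CPM at 3 days (1.10 ± 0.20, adjusted p = 0.000576). Its smaller difference at 8 days (0.56, adjusted p = 0.0294) was lost without any 1 of the 4 libraries (0.0814 to 0.165) and with DESeq2's size factors (0.0624), DESeq2's Wald test (0.0562), GC offsets (0.0831) or no filter (0.157).

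Other members of the first class kept the order they had at 72 h for longer. VGF was at 34.6 and 71.9 CPM in MYCN-high and 0.304 and 1.06 CPM in MYCN-low cells at 3 days (log2 fold change 6.26 ± 1.12, SE, adjusted p = 0.000569). At 8 days VGF was at 6.08 and 25.7 CPM against 0.408 and 1.45 CPM (4.07 ± 1.03, adjusted p = 0.0046), a call lost without MYCN-low replicate B (0.0525) or MYCN-high replicate C (0.0813). EEF1A2 was at 109 and 111 CPM against 0.867 and 0.757 CPM at 3 days (7.01 ± 0.66, adjusted p = 3.74e-06), and AGPAT9 at 42.2 and 39.1 CPM against 3.43 and 4.04 CPM (3.39 ± 0.51, adjusted p = 0.000133). CLDN4 was at 7.15 and 7.32 CPM against 0.304 and 0.606 CPM at 3 days (3.94 ± 0.63, adjusted p = 0.00022). PCOLCE, an enhancer of procollagen processing, was at 142.6 and 172 CPM against 37.3 and 23.9 CPM at 8 days (adjusted p = 0.00094). TERC was higher in MYCN-high cells at 3, 8 and 14 days (2.89, 2.90 and 1.96), as were FASN (1.16, 1.05 and 1.22) and RPL35 (1.31, 1.498 and 1.599). ATP5G1, a subunit of ATP synthase, was higher at 14 days (2.28 ± 0.41). RPL35 shared its order with its list, of which 22 and 24 of 24 ribosomal protein genes were higher at 3 and 8 days. Of all tested genes 17.0% and 23.4% were. On FASN's list of 20 cholesterol and fatty acid synthesis genes, 4 and 12 were higher and 5 and 0 lower at these times.

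COL6A1 and COL6A2 were lower in MYCN-high cells at 3, 8 and 14 days. COL6A1 was at 66.2 and 73.9 CPM in MYCN-high and 125 and 169 CPM in MYCN-low cells at 3 days (log2 fold change -1.13 ± 0.23, SE, adjusted p = 0.00133), and its difference was -1.88 at 8 days and -2.61 at 14 days. COL6A2 was lower by more (-2.37, -3.03 and -3.53). Over the whole matrix list, 21, 22 and 23 of the 24 genes were lower in MYCN-high cells at 3, 8 and 14 days, and 0 were higher, against 14.8%, 20.5% and 20.5% lower of all genes tested. TGFBI did not pass the test at 3 days (-0.04, adjusted p = 0.904) and was lower at 8 days (-0.91, adjusted p = 0.00486), a call lost without MYCN-high replicate B (0.0628), and at 14 days (-1.41, adjusted p = 0.000734). CD44 did not pass the test at 3 days, at 889.8 and 786 CPM in MYCN-high and 830.0 and 889 CPM in MYCN-low cells, which overlapped (-0.10, adjusted p = 0.775). CD44 was at 395 and 354 CPM against 741 and 1135 CPM at 8 days (-1.29, adjusted p = 0.000267) and at 221 and 279 CPM against 1031 CPM at 14 days (-1.92, adjusted p = 4.85e-05).

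In the second class MXRA5 was at 0.111 and 0.242 CPM in MYCN-high and 37.3 and 39.3 CPM in MYCN-low cells at 3 days, a log2 fold change of -7.79 ± 1.04 (SE, adjusted p = 5.44e-05), with -4.77 at 8 days and -3.97 at 14 days. COL5A1 was at 26.7 and 19.1 CPM against 1135 and 672 CPM at 3 days (-5.37 ± 0.47, adjusted p = 2.44e-06) and stayed lower (-4.56 and -3.48). ALPK2, an atypical kinase, was at 1.11 and 0.0605 CPM against 58.6 and 79.9 CPM at 3 days (-6.89 ± 0.79, adjusted p = 1.62e-05), and at 8 and 14 days the difference was -6.60 and -4.30. FSTL1 was at 172 and 155 CPM against 3179.8 and 3266 CPM at 3 days (-4.36 ± 0.28, adjusted p = 3.41e-07), and the gap was -3.34 at 8 days and -1.21 at 14 days. MXRA5, COL5A1 and FSTL1, the matrix genes among these, were lower in MYCN-high cells at all 3 times.

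SNAI2 was at 2.00 and 1.15 CPM in MYCN-high and 76.1 and 42.5 CPM in MYCN-low cells at 3 days (log2 fold change -5.29 ± 0.70, SE, adjusted p = 5.09e-05) and was lower at 8 days (-2.57, adjusted p = 0.00231), but at 14 days the difference of -1.64 did not pass the threshold (adjusted p = 0.0574). CXCR7 was at 0.942 and 0.665 CPM against 25.8 and 32.1 CPM at 3 days (-5.21 ± 0.49, adjusted p = 3.74e-06), at 0.195 and 0.419 CPM against 11.0 and 9.88 CPM at 8 days (-5.04), and at 8.98 and 4.24 CPM against 6.65 CPM at 14 days, where no difference was called (0.10, adjusted p = 0.888). ADAMTS5 (-5.21 ± 0.69, adjusted p = 2.82e-05) and FILIP1L, a filamin-interacting protein (-5.09 ± 0.45, adjusted p = 1.32e-06), were among the lowest at 8 days. The ADAMTS5 call at 14 days (-1.65, adjusted p = 0.0477) was lost without either MYCN-high replicate (0.108 and 0.133), with GC offsets, with the replicate block and by DESeq2's Wald test.

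KIT changed direction. It was at 21.0 and 16.4 CPM in MYCN-high and 224 and 276 CPM in MYCN-low cells at 3 days (log2 fold change -3.80 ± 0.28, SE, adjusted p = 8.1e-07), and at 27.9 and 32.4 CPM against 118 and 118 CPM at 8 days (-1.93, adjusted p = 3.05e-05). At 14 days it was at 146 and 112 CPM in MYCN-high cells against 41.5 CPM in the MYCN-low library, higher by 1.76 ± 0.33 (adjusted p = 0.000654). ZNF711 had the order of its untreated values, higher in MYCN-high cells at 8 days (1.504, adjusted p = 0.00154) and 14 days (1.74, adjusted p = 0.00447).

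Within MYCN-high cells, 58 of the 149 genes were lower and 0 higher at 14 days than at 3 days (background 14.7% and 14.1%), with a median log2 fold change of -0.71, and 31 of the 47 were higher and 0 lower (median 1.14; all tested genes -0.02). The 89 calls of both classes together became 56 to 59 without any 1 of the 4 libraries. Each class thus moved in the direction opposite to its 72 h change. These changes are relative to the bulk of genes: scaling to the ERCC spike-ins moved the median of all tested genes by -2.68 in this comparison, and FSTL1 (-0.30), SNAI2 (-0.23), ADAMTS5 (-0.67), KIF5C (-1.36) and ZNF711 (-1.76) then had the opposite sign. EEF1A2 was at 4.55 and 1.66 CPM at 14 days against 109 and 111 CPM at 3 days (-5.09 ± 0.58, SE, adjusted p = 3.84e-05), VGF at 0.795 and 4.24 CPM against 34.6 and 71.9 CPM (-4.30 ± 0.97, adjusted p = 0.00407) and IL8 at 0.511 and 1.56 CPM against 19.0 and 13.7 CPM (-3.86 ± 0.68, adjusted p = 0.000807). MMP10 was at 0.398 and 0.488 CPM against 5.60 and 4.60 CPM (-3.43 ± 0.80, adjusted p = 0.00504). Of the matrix and adhesion members of the first class, TGFBI fell by 1.69 (adjusted p = 0.000145), COL6A1 by 1.60 (0.00019) and CD44 by 1.67 (0.000117). MXRA5 and FSTL1, matrix genes of the second class, rose. On the whole list of 24 matrix genes 2 were higher and 7 lower, against 14.1% and 14.7% of all tested genes.

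Of the NF-kappaB list, 6 of 20 genes were lower and 0 higher at 14 than at 3 days in MYCN-high cells, against 14.7% and 14.1% of all genes tested. Among its members RELB fell by 1.496 (adjusted p = 0.0059), BIRC3 by 1.97 (0.0345) and NFKB2 by 1.10 (0.0337). Each of these calls rested on single libraries: BIRC3's was lost without either MYCN-high 3-day library (0.107 and 0.0958) or 14-day replicate C (0.246), NFKB2's without any 1 of the 4 libraries (0.0643 to 0.207) and with GC offsets (0.0827), and RELB's without 3-day replicate B (0.0549) or 14-day replicate C (0.0721).

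In the second class KIT was at 146 and 112 CPM at 14 days against 21.0 and 16.4 CPM at 3 days in MYCN-high cells (log2 fold change 2.86 ± 0.27, SE, adjusted p = 1.25e-05), and FSTL1 at 909 and 518 CPM against 172 and 155 CPM (2.20 ± 0.25, adjusted p = 3.84e-05). CXCR7 rose by 3.09 ± 0.49 (adjusted p = 0.000342). LPPR4, a neuronal phospholipid phosphatase-related protein, was at 5.57 and 3.41 CPM against 0.222 and 0.544 CPM (3.62 ± 0.72, adjusted p = 0.00176), and NDNF, a neuron-derived secreted factor, at 17.7 and 10.6 CPM against 2.66 and 1.09 CPM (2.97 ± 0.45, adjusted p = 0.000257). MXRA5 rose by 3.85 ± 1.18 (adjusted p = 0.0232), a call lost without 3-day replicate B (0.142), 3-day replicate C (0.0865) or 14-day replicate C (0.179). SNAI2 rose by 2.86 (adjusted p = 0.00562) and was not called without 3-day replicate C (0.0602).

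In MYCN-high cells 30 of the 149 genes were lower and 0 higher at 8 than at 3 days (background 6.42% and 6.63%), and of the 47, 12 were higher and 2 lower; without 8-day replicate C 7 calls were made in place of 44. ADM was at 8.96 and 3.88 CPM at 8 days against 31.5 and 28.3 CPM at 3 days (log2 fold change -2.23 ± 0.30, SE, adjusted p = 0.00096), and was called without each library in turn. EEF1A2 (-2.35, adjusted p = 0.00692) and SELPLG, the P-selectin ligand (-2.25, adjusted p = 0.0216), fell as well, EEF1A2 no longer called without 3-day replicate B (0.0505) or 8-day replicate C (0.105) and SELPLG without any 1 of the 4 libraries (0.0586 to 0.203). GFRA1, the GDNF co-receptor, was a gene of the second class that was lower at 8 days, at 2.34 and 1.31 CPM against 13.5 and 9.80 CPM (-2.67 ± 0.54, adjusted p = 0.00529), a call lost without 3-day replicate B (0.0549) or 8-day replicate C (0.0945). Among those higher, KIF5C was at 13.0 and 10.8 CPM against 3.60 and 5.02 CPM (1.47 ± 0.31, adjusted p = 0.00738; 0.107 without 3-day replicate B). DCN (2.56, adjusted p = 0.0313), SNAI2 (2.54, 0.0239) and NDNF (1.56, 0.0325) each lost their call without 3 or 4 of the 4 libraries.

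In MYCN-low cells 0 of the 149 genes passed at 8 against 3 days in either direction, and 1 of the 47 was lower (background 0.662% higher and 0.0406% lower). It was KIT, at 118 and 118 CPM at 8 days against 224 and 276 CPM at 3 days (log2 fold change -1.18 ± 0.25, SE, adjusted p = 0.0432), and its call was lost without any 1 of the 4 libraries (0.222 to 0.419). The change from 3 to 8 days differed between the states in 7 of the 149 genes, all more negative in MYCN-high cells, and in 6 of the 47, all more positive there (background 0.669% and 0.521%, 1.19% in either direction). No call was made without MYCN-low 3-day replicate C or MYCN-high 8-day replicate C. EEF1A2 (difference of log2 changes -4.57 ± 0.80, SE, adjusted p = 0.0176) and ADM (-2.70 ± 0.41, adjusted p = 0.00942) led the first class, followed by BHLHE41, a circadian repressor (-2.32), and IRAK2, a kinase of interleukin-1 signalling (-2.02). In the second class LYPD6, a modulator of Wnt and nicotinic receptors (2.00 ± 0.33, adjusted p = 0.0149), KIT (1.87), the troponin TNNT1 (1.73) and KCTD12, an auxiliary subunit of GABA-B receptors (1.60), led.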

How the data were processed

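RNA-seq counts of 19 libraries in 10 groups were used. Per the labels' protocols, ERCC spike-ins were added, a RiboGold kit depleted ribosomal RNA and ScriptSeq was the library kit; the molecule field nevertheless names polyA RNA. The authors deposited raw read counts per gene, made with STAR 2.4.0h1 and HTSeq on hg19 per the submitters' processing notes. The annotation and the strand setting are not given in the sources used here. The start-to-end spans of 40 of the 196 genes, introns included, overlap another gene. For reads from the shared stretches the gene of origin is uncertain.

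The 92 ERCC rows were set aside, and the rule of the opening was applied to CPM. Tests used edgeR 4.0.16 (R 4.3.3) on the counts as deposited: filterByExpr kept 14793 genes, TMM scaling, 1 coefficient per group over all libraries, quasi-likelihood test, Benjamini-Hochberg adjustment, threshold 0.05 (9 residual degrees of freedom, biological coefficient of variation 0.204). Total gene counts of 16530112 to 27638012 set the counting precision. GC content and length came from the longest transcript in GENCODE release 29, promoters from RefSeq (GRCh38.p14). Figures used Python 3.11.15 and matplotlib 3.10.9.

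The members and gene lists were chosen with earlier results of these data known. Genes named are the 10 of each class with the largest smaller absolute log2 ratio, list members, the nearest on both sides of the threshold, up to 4 per direction in each tested contrast with no overlap of libraries, and MYCN; others were chosen after their values were seen, CD82, HMGA1, EEF1A2 and CLDN4 at 72 h among them. Alternatives were other scalings (DESeq2 1.42.0 size factors, ERCC), other thresholds, no filter, DESeq2's Wald test, a replicate block and leaving out each library; a GC correction (statsmodels 0.14.6), leaving out both GC-dependent libraries and each replicate letter alone were added after seeing the data.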

Additional observations from a re-analysis of the deposited data

Results flagged for a closer look

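For 13 genes the change from 3 to 8 days after washout differed between MYCN-high and MYCN-low cells by edgeR's quasi-likelihood test of the difference itself (Benjamini-Hochberg adjusted p from 0.00942 to 0.0443); values below are the difference of log2 changes, MYCN-high minus MYCN-low. Of the class higher in MYCN-high cells at 72 h, EEF1A2 had -4.57 (adjusted p = 0.0176), the vasodilator peptide ADM -2.70 (0.00942), the circadian repressor BHLHE41 -2.32 (0.0249), IRAK2 -2.02 (0.0443), the membrane protein CYSTM1 -1.58 (0.0356), the actin adaptor BAIAP2 -1.01 (0.0331) and the hydrolase ABHD2 -0.90 (0.0443). Of the class lower in MYCN-high cells, IVNS1ABP had 1.51 (0.0219), the mechanosensitive channel PIEZO2 1.58 (0.0161), KCTD12 1.60 (0.0443), TNNT1 1.73 (0.0356), KIT 1.87 (0.0233) and LYPD6 2.00 (0.0149).

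ADM was at 8.96 and 3.88 CPM at 8 days against 31.5 and 28.3 CPM at 3 days in MYCN-high cells, and at 26.0 and 26.0 CPM against 17.4 and 17.7 CPM in MYCN-low cells, with no overlap of times in either state. Its log2 change was -2.23 in MYCN-high cells and 0.47 in MYCN-low cells, where it did not pass the threshold. BHLHE41 was at 11.4 and 4.56 CPM at 8 days against 29.6 and 29.3 CPM at 3 days in MYCN-high cells, and at 33.4 and 52.3 CPM against 28.1 and 31.6 CPM in MYCN-low cells. LYPD6 was at 11.6 and 12.0 CPM at 8 days against 3.66 and 5.32 CPM at 3 days in MYCN-high cells, and at 11.1 and 13.6 CPM against 16.0 and 19.2 CPM in MYCN-low cells. Every difference called here lost its call without MYCN-low 3-day replicate C or MYCN-high 8-day replicate C.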

How the results depend on the processing

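The number of genes meeting the rule, 196, was 5 with ERCC scaling, 39 at a ratio threshold of 2, 104 with the GC correction, 120 without both GC-dependent libraries, 410 from replicate letter B alone (169 from letter C alone) and 121 to 594 without each library in turn. The totals of members called by edgeR were 93, 100 and 83 between the states at 3, 8 and 14 days, 44 at 8 against 3 days and 89 at 14 against 3 days in MYCN-high cells, 1 at 8 against 3 days in MYCN-low cells and 13 for the difference of those changes.

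With ERCC scaling these totals were 2, 0, 1, 0, 4, 0 and 0; it moved the median of all tested genes by 1.82, 0.80, -0.83, -0.47, -2.68, 0.50 and -1.002, and ERCC reads were 0.0116% to 0.537% of counts. It turned the sign of 6 of 129 named results: COL6A1 between states at 3 days (0.71) and, at 14 against 3 days, ADAMTS5 (-0.67), FSTL1 (-0.30), KIF5C (-1.36), SNAI2 (-0.23) and ZNF711 (-1.76). Without the filter on low counts 71, 20 and 56 members were called at 8 against 3 days in MYCN-high cells, in MYCN-low cells and for the difference. DESeq2's Wald test called 5 and 33 for the last 2, and GC offsets 22 for the difference. The cause was not tested.

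Leaving out each library gave 74 to 76, 76 to 92 and 66 to 75 between states, 7 to 34 at 8 against 3 days and 56 to 59 at 14 against 3 days in MYCN-high cells, 0 to 2 in MYCN-low cells and 0 to 17 for the difference. With the replicate block the totals were 96, 102, 80, 52, 98, 3 and 24. The differences in log2 CPM of replicate B minus replicate C were correlated between groups. The correlations were 0.101 to 0.217 within MYCN-high, 0.102 to 0.315 within MYCN-low and -0.208 to 0.182 across the states. There are only 2 letters and the labels tie neither to a day or batch, so they were not taken to pair the samples. Apart from ERCC scaling, 986 of 1133 alternatives of the named results kept their call, 147 lost it and 0 changed sign. With 2 libraries a group, genes near the threshold could not be settled at this depth.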

Other observations

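The genes in these observations were chosen after their values were seen. Both PIEZO channels, which open when membranes stretch, were members and stood in opposite classes. PIEZO1 was at 184 and 259 CPM at 72 h, against 101 and 101 CPM untreated, in MYCN-high cells, and at 183 and 176 CPM, against 363 and 186 CPM, in MYCN-low cells. PIEZO2 was at 34.6 and 27.8 CPM at 72 h, against 52.7 and 48.3 CPM untreated, in MYCN-high cells, and at 196 and 264 CPM, against 117 and 94.4 CPM, in MYCN-low cells. PIEZO1 did not meet the rule after the GC correction or without MYCN-low untreated replicate B. Without both GC-dependent libraries its MYCN-low ratio was 0.965. PIEZO2 did not meet the rule without MYCN-high 72 h replicate C, and its MYCN-high ratio without both libraries was 0.687. At 3 days PIEZO2 was lower in MYCN-high than in MYCN-low cells by edgeR's test (log2 fold change -3.04 ± 0.20, SE, adjusted p = 3.62e-07), and PIEZO1 was lower at 8 days (-1.35) and 14 days (-1.25).

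In the genome 7 pairs of members lay next to each other, and the number of such pairs among other genes was not computed. They included COL6A1 and COL6A2 on chromosome 21, LMO7 and KCTD12 on chromosome 13, and ST6GALNAC6 and ST6GALNAC4, which add sialic acid to glycans, on chromosome 9. BHLHE41 and SSPN on chromosome 12 have overlapping spans and were in opposite classes. Without a stated strand setting, the gene of origin is uncertain for reads from the shared stretch.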
